A study of Homo sapiens with 9 samples.

Results

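Integrin subunits and laminin chains, the receptor and ligand pair that holds cells on the basement membrane, were examined in MDA-MB-231 cells given the SID decoy peptide. The members were chosen by gene symbol alone (ITGA, ITGB, LAMA, LAMB and LAMC followed by the number or letter of a chain), from the array probes paired with 1 symbol, and were 35 of the 18417 genes measured. Of these, 25 encode integrin chains (17 alpha and 8 beta) and 10 encode laminin chains (4 alpha, 4 beta and 2 gamma). Each was read by 1 probe, a set of oligonucleotides along its transcript. ITGA1 and LAMA3 were not analysed here.

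MDA-MB-231 is a human triple-negative breast cancer line of mesenchymal shape. The cells were left untreated (UT), or received a scrambled peptide (SCR) or 2.5 μM SID peptide, a decoy of the domain through which transcription factors such as MAD bind the corepressor SIN3, for 24 h by the protocol in the labels. The labels give this line for all groups, each of them measured on 3 arrays, 9 in all. The methods speak of independent biological replicates, but of fewer than the labels hold. Which arrays they mean is not given in the sources used here, so p-values measure the spread between these arrays, part of which may be technical. Signals are normalized log2 values, on which a difference of 1 is 2-fold. The number of arrays limits the precision.

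Integrins are heterodimers of an alpha and a beta chain, and the pair decides the ligand. The alpha V chain joins several beta chains in receptors of fibronectin, vitronectin and latent TGF-β, alpha 5 beta 1 is the classical fibronectin receptor, alpha 2 beta 1 binds collagen, and alpha 3 beta 1 and alpha 6 beta 4 bind laminins. Laminins are heterotrimers of an alpha, a beta and a gamma chain. Alpha 6 beta 4 and the laminin that contains the beta 3 chain anchor epithelial cells in hemidesmosomes, and the same receptors carry invasive breast cancer cells over matrix.

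The arrays did not fall into their 3 groups. Replicates 1 and 2 of SCR and of SID lay on one side of the first principal component and the other 5 arrays, replicate 3 of each peptide and UT, on the other side of this axis, which held 78.5% of the variance over all probes tested. No UT array lay with replicates 1 and 2, so for those arrays peptide treatment and array set cannot be told apart in any comparison with UT. The markers of the line, VIM, CD44 and AXL, were present on all arrays but split by array set. VIM lay at 12.75 to 13.01 in UT and replicate 3 and at 13.19 to 13.34 in replicates 1 and 2. The split was wider for CD44, with 10.68 to 10.84 in UT and replicate 3 and 13.17 to 13.25 in replicates 1 and 2. AXL lay at 9.95 to 10.14 and 12.95 to 13.31 in these sets. ESR1 and PGR were low (6.76 to 7.23 and 5.61 to 5.75) and ERBB2 lay at 9.15 to 9.64. EPCAM, an epithelial surface protein, lay between 6.14 and 6.87 on the UT arrays and on replicate 3, but reached 10.78 and 10.94 under SCR and 9.74 and 10.14 under SID in replicates 1 and 2. Among markers of other cells, PTPRC of leukocytes lay at 4.84 to 5.07, and PECAM1 of endothelium at 5.73 to 6.18 in UT and replicate 3, with 7.96 and 7.65 for SCR and 6.99 and 6.33 for SID in replicates 1 and 2. CDH1, likewise epithelial, is given among the ligands. Whether replicates 1 and 2 came from the same culture, stock or batch of cells as the other arrays is not given in the sources used here, and the part of these markers in the results was not tested. A column heading of the study gives SCR replicate 3 a longer treatment than its label does.

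ITGB3, the beta 3 chain that joins alpha V in the vitronectin receptor, had the largest difference between SID and SCR of all members. Its log2 signal was 7.73, 7.64 and 7.58 on the UT arrays 1, 2 and 3. It was 7.83, 8.43 and 7.11 on the SCR arrays and 10.22, 11.04 and 6.97 on the SID arrays. SID replicates 1 and 2 thus lay above every other array, while SID replicate 3 had the lowest signal of all 9 and the groups overlapped. The difference of SID from SCR, by replicate number, came to 2.39, 2.61 and -0.14.

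Over all 9 arrays ITGB3 averaged 9.41 ± 2.15 (SD, n = 3) in SID, 7.79 ± 0.66 in SCR and 7.65 ± 0.08 in UT, and the difference of 1.62 (SE 0.95) between SID and SCR did not pass limma's test (adjusted p = 0.702). Within replicates 1 and 2, a set chosen with earlier results of these arrays known, ITGB3 rose by 2.50 (SE 0.35, 5.64-fold) under SID, with limma's adjusted p = 0.0263. The difference between SID and SCR was itself different between replicates 1 and 2 and replicate 3, by 2.63 (SE 0.48, limma's adjusted p = 0.0214), where the lone replicate 3 arrays were assumed to vary like the others. Leaving out SID replicate 3 gave 2.84 with an adjusted p = 0.00960 in limma, and leaving out any other SCR or SID array gave 0.80 to 1.94 without a call. Without SID replicate 3, SID held only replicates 1 and 2 while SCR kept replicate 3, its lowest array at 7.11. That difference therefore mixes peptide with array set.

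**Figure D1:**
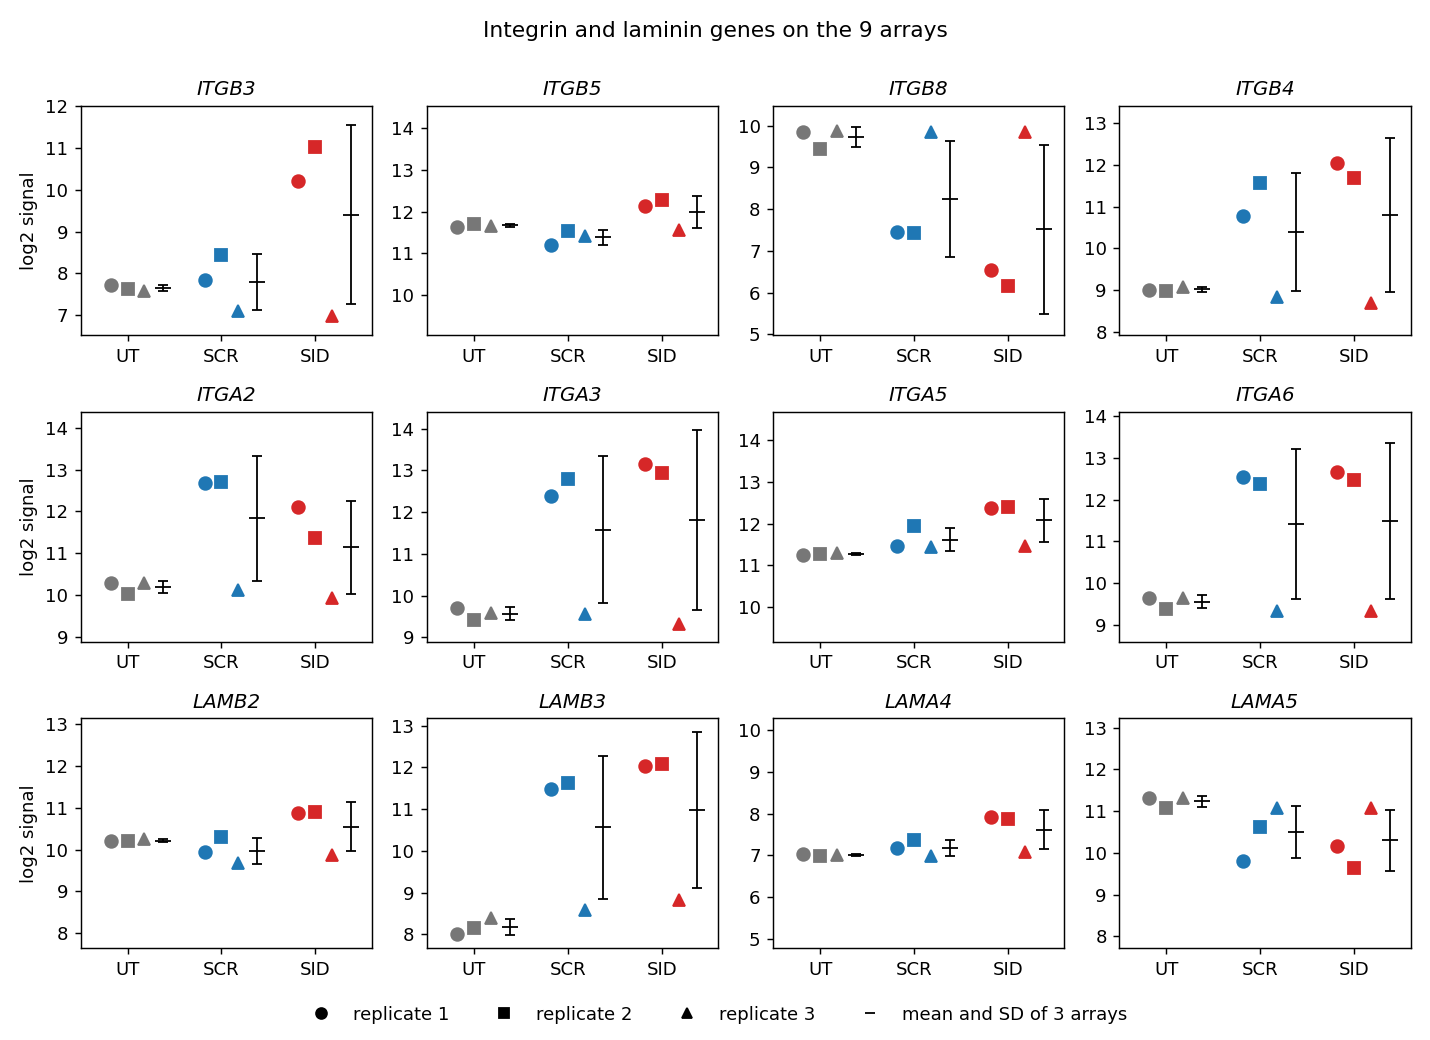
Log2 signal (vertical axis) of 12 integrin and laminin genes on each array, by group, with circles, squares and triangles for replicates 1, 2 and 3 and a bar for the mean and SD of 3 arrays. The SID arrays of ITGB3 read 10.22, 11.04 and 6.97 in the order of the replicates, and for ITGA3, ITGA6, ITGB4 and LAMB3 replicate 3 of SCR and SID lies near the UT arrays.

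For the members as a whole, 26 had the higher group mean in SID and 9 in SCR, with a median difference of 0.07 log2 against 0.02 over all 19460 probes tested, of which 10742 were higher and 8712 lower. A gene was called where limma's adjusted p was under 0.05 and the difference over 1 in size. With limma on the 9 arrays 0 of 35 members were called between SID and SCR, where 0% of all probes were called, and 1 member, ITGB5, had an unadjusted p under 0.05 (background 7.57%). By the methods' t-test the counts were 0 called and 0 with an unadjusted p under 0.05. By size alone, 1 member exceeded 1 in its mean difference (background 1.62%). SID and SCR did not overlap for 1 member, again ITGB5, where 5.66% of all probes did not overlap.

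By replicate, the median difference of the members was 0.06, 0.15 and -0.02 in replicates 1, 2 and 3, against 0, 0.07 and 0.01 over all probes. Of the 35 members, 2 (ITGB3 and ITGB4) exceeded 1 in size in replicate 1, as did 881 of all 19460 probes. In replicate 2, 3 members (ITGB3, ITGB8 and ITGA2) did so, as did 1482 of all probes. In replicate 3 the members ran from -0.26 to 0.30, with 0 over 1 (background 0.293%). With replicates 1 and 2 alone limma called 1 member higher, ITGB3, where 1.77% of all probes were called higher, and 1 lower, ITGB8, where 2.64% were called lower. Without the limit on size, 6 members (17.1%) had an adjusted p under 0.05 in limma, namely ITGB3, ITGB5, ITGB8, LAMA4, LAMB2 and LAMB3, against 13.6% of all probes. The test of replicates 1 and 2 against replicate 3 called 1 member higher (background 1.72%) and 0 lower (background 3.15%) in limma.

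**Figure D2:**
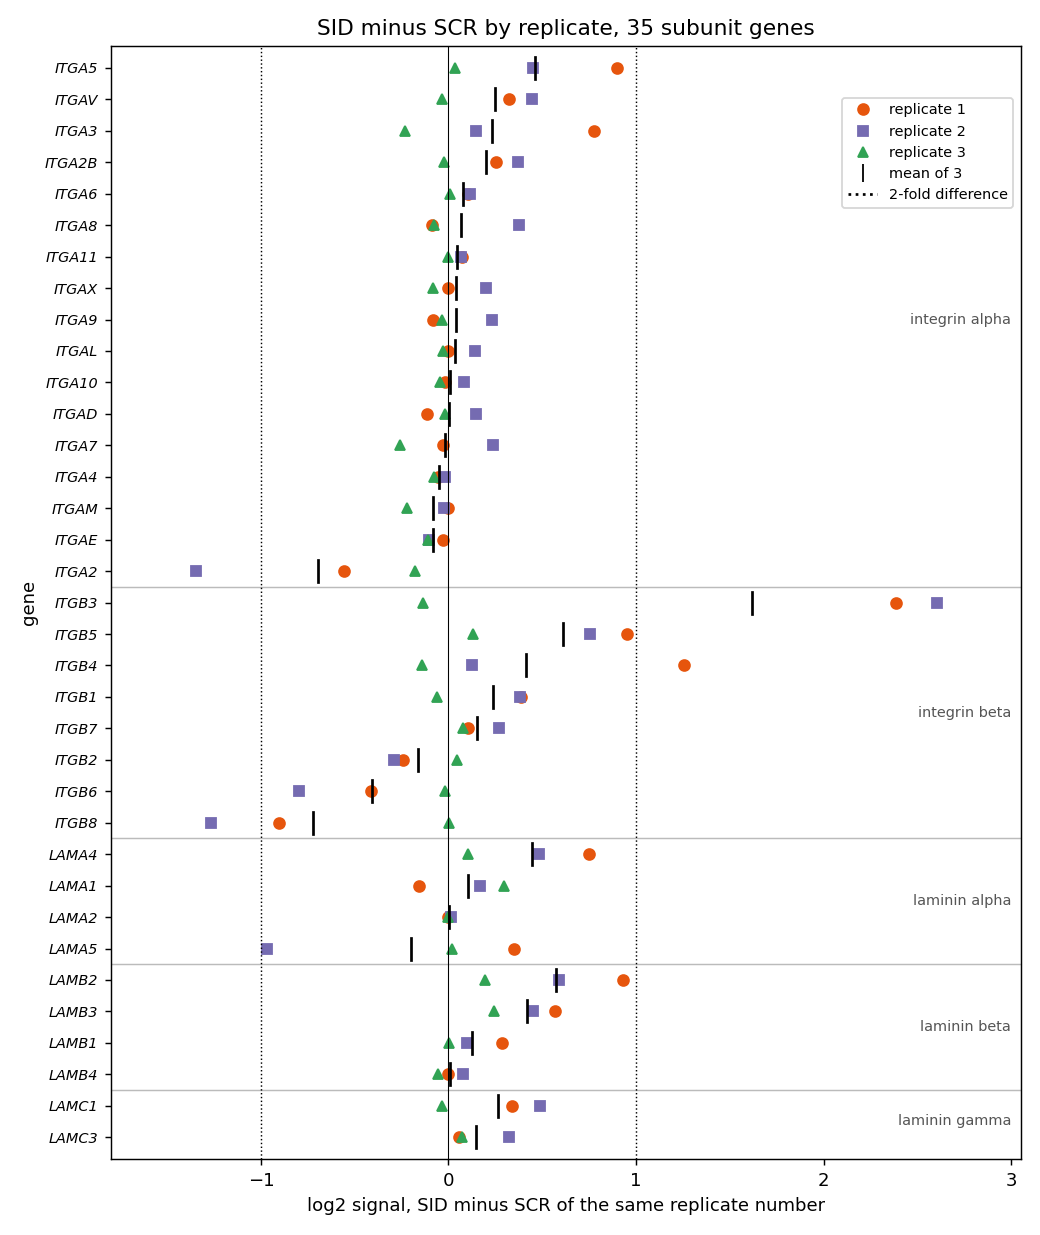
Difference in log2 signal between the SID and the SCR array of the same replicate number (horizontal axis) for the 35 genes (vertical axis), with circles, squares and triangles for replicates 1, 2 and 3, a bar for their mean and dotted lines at 2-fold. The triangles of replicate 3 all lie between -0.26 and 0.30, whereas ITGB3 reaches 2.39 and 2.61 and ITGB8 -0.90 and -1.27 in replicates 1 and 2.

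A difference of one sign over 0.5 in both replicate 1 and replicate 2 was found for 3 members in the higher direction (ITGB3, ITGB5 and LAMB2, 8.57% against a background of 6.1%) and for 2 in the lower direction (ITGA2 and ITGB8, 5.71% against a background of 7.68%). Their shares were near those of all probes. The start sites of these genes are shown because the decoy is directed at a corepressor that transcription factors bring to promoters. The windows are the 250 bases before the outermost start in RefSeq (GRCh38.p14), read 5′ to 3′ on the strand of the gene, at chr5:52989102-52989351 on the plus strand for ITGA2, chr3:124901419-124901668 on the minus strand for ITGB5, chr7:20330650-20330899 on the plus strand for ITGB8 and chr3:49133051-49133300 on the minus strand for LAMB2. ITGB3 was not in the table. Capitals mark matches on either strand to the GC box bound by SP and KLF factors (GGGCGG) or to the CCAAT box.
ITGA2: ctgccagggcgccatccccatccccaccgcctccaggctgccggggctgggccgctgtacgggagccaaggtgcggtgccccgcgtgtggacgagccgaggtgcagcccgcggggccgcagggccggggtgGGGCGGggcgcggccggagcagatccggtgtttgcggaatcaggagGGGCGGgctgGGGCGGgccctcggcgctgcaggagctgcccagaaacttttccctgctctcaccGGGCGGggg
ITGB5: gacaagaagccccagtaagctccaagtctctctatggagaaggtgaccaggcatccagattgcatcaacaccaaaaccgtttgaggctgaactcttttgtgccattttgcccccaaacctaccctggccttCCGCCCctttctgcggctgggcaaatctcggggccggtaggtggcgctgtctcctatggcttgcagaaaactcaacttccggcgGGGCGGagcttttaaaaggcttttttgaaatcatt
ITGB8: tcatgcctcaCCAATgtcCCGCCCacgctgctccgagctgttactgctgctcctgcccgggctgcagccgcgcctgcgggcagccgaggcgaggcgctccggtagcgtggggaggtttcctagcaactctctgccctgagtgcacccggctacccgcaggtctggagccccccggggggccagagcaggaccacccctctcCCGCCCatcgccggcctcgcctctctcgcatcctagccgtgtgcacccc
LAMB2: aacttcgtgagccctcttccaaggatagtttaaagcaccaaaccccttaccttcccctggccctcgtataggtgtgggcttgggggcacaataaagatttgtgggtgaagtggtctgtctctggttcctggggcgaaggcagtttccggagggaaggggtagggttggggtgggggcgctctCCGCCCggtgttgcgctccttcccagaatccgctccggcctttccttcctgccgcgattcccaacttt

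These windows held 4, 2, 2 and 1 GC boxes in the order shown, and that of ITGB8 also held 1 CCAAT box. Of 24 members with a window in the table, 12 held a GC box, as did 42.2% of 27305 windows of that length. A CCAAT box was found for 4 members (33% of all windows). The TGIF letters TGACAG were found for 5 members (13.1%), the TCF/LEF letters CCTTTG for 1 (15.3%) and the AP-1 letters TGANTCA for 0 (6.57%). None of these last 3 motifs was found in the windows shown above. These are matches of letters only, with both strands searched.

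The beta chains that join alpha V differed in direction in replicates 1 and 2. ITGB1, ITGB3 and ITGB5 were higher in SID than in SCR in both, and ITGB6 and ITGB8 were lower in both, but only ITGB3 and ITGB8 were called there. In replicate 3 the 5 chains ran from -0.14 to 0.13. ITGB5, the beta 5 chain of another vitronectin receptor, lay at 11.63, 11.71 and 11.66 in UT, 11.19, 11.53 and 11.43 in SCR and 12.14, 12.29 and 11.56 in SID. All SID values lay above all SCR values, though SID replicate 3 lay below the UT arrays. The mean difference between SID and SCR was 0.61 (SE 0.19, limma's adjusted p = 0.657), and in replicates 1 and 2 it was 0.85 (SE 0.15, limma's adjusted p = 0.0359), short of the limit of 1.

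ITGB8 encodes the beta 8 chain of a receptor that activates latent TGF-β. Its signal was 9.83, 9.44 and 9.88 in UT, 7.44, 7.43 and 9.84 in SCR and 6.54, 6.16 and 9.84 in SID. Replicate 3 of both peptides lay with UT, SCR replicates 1 and 2 lay lower, and SID replicates 1 and 2 were lowest. SID minus SCR averaged -0.72 (SE 1.04, limma's adjusted p = 0.922) over all arrays. Within replicates 1 and 2 ITGB8 fell by 1.08 on the log2 scale (SE 0.15, limma's adjusted p = 0.0257), and its difference from replicate 3 was -1.09 (SE 0.30, limma's adjusted p = 0.0730), which missed the threshold. ITGB6, the beta 6 chain of an epithelial receptor of latent TGF-β, gave SID minus SCR of -0.41, -0.80 and -0.02 in replicates 1, 2 and 3. Its probe was dim, with a mean signal at percentile 17.1 of the probes tested. It read 5.82 to 6.18 in UT, 6.65, 6.97 and 6.08 in SCR and 6.07 to 6.24 in SID.

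The alpha V chain itself (ITGAV) varied little, at 11.45, 11.29 and 11.53 in UT, 11.45, 11.21 and 11.29 in SCR and 11.78, 11.65 and 11.25 in SID. ITGB1, the beta chain with the most alpha partners, lay at 12.73, 12.58 and 12.67 in UT, 12.62, 12.57 and 12.52 in SCR and 13.01, 12.95 and 12.46 in SID. For both genes SID replicates 1 and 2 were the highest arrays and SID replicate 3 the lowest or among the lowest. SID minus SCR in replicates 1 and 2 was 0.39 for ITGAV (limma's adjusted p = 0.115) and 0.38 for ITGB1 (limma's adjusted p = 0.0524). ITGA5, which with ITGB1 forms the fibronectin receptor, lay at 11.24, 11.26 and 11.28 in UT, 11.47, 11.94 and 11.44 in SCR and 12.37, 12.39 and 11.47 in SID. SID replicates 1 and 2 again exceeded every other array, by SID minus SCR of 0.90 and 0.45, and replicate 3 differed by 0.03. The mean of replicates 1 and 2, 0.67, had an adjusted p = 0.0785 in limma.

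ITGA2, the alpha chain of the collagen receptor, ran the other way. Its signal was 10.28, 10.02 and 10.27 in UT, 12.67, 12.71 and 10.11 in SCR and 12.11, 11.37 and 9.93 in SID. Replicates 1 and 2 of both peptides lay above all other arrays, SCR higher than SID, and replicate 3 lay with UT. SID minus SCR was -0.56, -1.35 and -0.18 in replicates 1, 2 and 3, and the mean of replicates 1 and 2, -0.95, was not called (limma's adjusted p = 0.0879). The other collagen alpha chains measured, ITGA10 and ITGA11, gave differences of at most 0.09 in size in any replicate.

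Of the laminin receptor chains, ITGA3, ITGA6 and ITGB4 had higher signals in replicates 1 and 2 under both peptides, and ITGA7, of the muscle laminin receptor, did not (7.02 to 7.40 on all arrays). ITGA3 lay at 9.71, 9.41 and 9.59 in UT, 12.38, 12.80 and 9.56 in SCR and 13.16, 12.95 and 9.33 in SID. ITGA6 lay at 9.65, 9.38 and 9.65 in UT, 12.55, 12.37 and 9.34 in SCR and 12.66, 12.48 and 9.35 in SID. ITGB4, whose long cytoplasmic tail links the receptor to intermediate filaments, lay at 9.0, 8.97 and 9.08 in UT, 10.78, 11.56 and 8.83 in SCR and 12.03, 11.69 and 8.69 in SID. In these 3 genes the 4 arrays of replicates 1 and 2 were separate from the other 5, whichever peptide was given.

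Between SID and SCR these laminin receptors differed less. ITGA3 gave 0.78, 0.15 and -0.23 in replicates 1, 2 and 3, ITGA6 gave 0.11, 0.11 and 0.01, and ITGB4 gave 1.26, 0.13 and -0.14. In replicates 1 and 2 limma's adjusted p was 0.167 for ITGA3, 0.590 for ITGA6 and 0.213 for ITGB4. For ITGB4 the SID and SCR arrays of replicates 1 and 2 nearly met, at 11.69 and 11.56 in replicate 2.

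Among the laminins, LAMB3, the beta chain of the hemidesmosomal laminin, followed its receptors. It lay at 8.0, 8.16 and 8.38 in UT, 11.47, 11.63 and 8.57 in SCR and 12.04, 12.08 and 8.82 in SID. SID exceeded SCR in each replicate, by 0.57, 0.45 and 0.25, but the groups overlapped because replicate 3 lay near UT. Within these replicates 1 and 2 the difference of 0.51 (SE 0.10) had an adjusted p = 0.0412 in limma and stayed under the limit of 1.

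LAMB2, the beta 2 chain, lay at 10.19, 10.20 and 10.25 in UT, 9.93, 10.30 and 9.67 in SCR and 10.87, 10.89 and 9.87 in SID. SID replicates 1 and 2 were above all other arrays, and SID exceeded SCR by 0.93, 0.59 and 0.19 in replicates 1, 2 and 3. The mean difference was 0.57 (SE 0.29, limma's adjusted p = 0.683), and that of replicates 1 and 2 was 0.76 (limma's adjusted p = 0.0440). LAMA4, an alpha chain of vascular and mesenchymal laminins, lay at 7.04, 6.99 and 7.02 in UT, 7.17, 7.38 and 6.98 in SCR and 7.92, 7.86 and 7.08 in SID. Here too SID replicates 1 and 2 were highest, and their difference from SCR was 0.62 (limma's adjusted p = 0.0363). LAMC1, the gamma chain of most laminins, gave 0.34, 0.49 and -0.03 in replicates 1, 2 and 3, and the mean of replicates 1 and 2, 0.41, had an adjusted p = 0.0516 in limma.

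LAMA1, LAMA5, LAMB1 and LAMC3 had lower signals in replicates 1 and 2 under both peptides than in UT. LAMA5, the alpha chain of most epithelial laminins, lay at 11.31, 11.08 and 11.31 in UT, 9.82, 10.61 and 11.07 in SCR and 10.17, 9.64 and 11.08 in SID. SID was above SCR by 0.35 in replicate 1 and below it by 0.97 in replicate 2 (SID minus SCR of -0.97), so the replicates did not share a direction. LAMB1, the beta 1 chain, lay at 12.42, 12.34 and 12.43 in UT, 11.19, 11.22 and 12.20 in SCR and 11.47, 11.32 and 12.21 in SID. LAMC3, a gamma chain, lay at 9.52, 9.58 and 9.69 in UT, 8.42, 8.32 and 9.34 in SCR and 8.47, 8.64 and 9.41 in SID. LAMA1, the alpha chain of the early embryo, lay at 7.95 to 8.21 in UT and 6.96 to 7.33 in replicates 1 and 2 of the peptides. These 4 genes lay near UT in replicate 3. Of all 10 laminin chains, 9 were higher and 1, LAMA5, lower in SID than in SCR by their means (median 0.14), and of 25 integrin chains 17 were higher and 8 lower (median 0.04). In limma 0 of the 10 laminin chains had an unadjusted p under 0.05 between SID and SCR.

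The 6 alpha chains of leukocyte integrins (ITGA4, ITGAD, ITGAE, ITGAL, ITGAM and ITGAX) spanned 0.21 to 0.31 over the 9 arrays, and their SID minus SCR lay between -0.22 and 0.20 in every replicate. ITGB2, the beta chain of several of them, spanned 1.25, with 7.55 to 7.93 in UT and 8.46 and 8.80 in SCR replicates 1 and 2, and ITGA2B, the alpha chain of platelets, spanned 0.84. In each class the member with the smallest mean difference was ITGAD at 0.00 for the integrin alpha chains, ITGB7 at 0.15 for the beta chains, LAMA2 at 0.00, LAMB4 at 0.01 and LAMC3 at 0.15. LAMA2, the laminin alpha chain of muscle, stayed between 6.50 and 6.54 on all arrays. ITGA10, ITGA4, ITGA8, ITGAL, LAMA2 and LAMB4 lay in the lowest 25% of signals on every array, where a difference may be too dim to show.

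Against UT, 6 members differed by over 1 in the mean for SID (ITGA3, ITGA6, ITGB3, ITGB4, ITGB8 and LAMB3, 17.1% against a background of 6.92%) and 6 for SCR (ITGA2, ITGA3, ITGA6, ITGB4, ITGB8 and LAMB3, 17.1% against a background of 6.12%). In limma 0 members were called in either comparison, where 0% of all probes were called, and 4 (11.4%, background 12.5%) and 6 (17.1%, background 14.4%) members had an unadjusted p under 0.05. The methods' t-test gave 0 called and 1 and 2 with an unadjusted p under 0.05. Both comparisons share the UT arrays. LAMB3 differed from UT by 2.80 for SID (SE 1.07, limma's adjusted p = 0.388) and by 2.38 for SCR (SE 1.07, limma's adjusted p = 0.353), and ITGA3 by 2.24 and 2.01 (limma's adjusted p = 0.397 and 0.420). Leaving out SID replicate 3 gave 8 members called against UT in SID (22.9%, background 10%), and leaving out SCR replicate 3 gave 3 in SCR (8.57%, background 5.5%). Each fit kept the other peptide's replicate 3 in the shared spread, so these counts cannot be compared between the peptides.

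These mean differences lay in replicates 1 and 2. SCR replicates 1 and 2 averaged over 1 above both SCR replicate 3 and UT for 5 members (ITGA2, ITGA3, ITGA6, ITGB4 and LAMB3, 14.3% against a background of 5.85%), and over 1 below both for ITGB8 (2.86% against a background of 3.52%). They exceeded the UT mean by 3.37 for LAMB3, 3.02 for ITGA3, 2.90 for ITGA6, 2.50 for ITGA2 and 2.15 for ITGB4, and ITGB8 lay 4.86-fold below it. SCR replicate 3 differed from UT by 0.39 for LAMB3, -0.01 for ITGA3, -0.22 for ITGA6, -0.08 for ITGA2 and -0.19 for ITGB4. ITGB3 was unlike these genes against UT, since SCR replicates 1 and 2 averaged 0.48 above UT and SID replicates 1 and 2 2.98 above it. Its SCR replicates 1 and 2 did average 1.02 above SCR replicate 3. With the peptide's replicate 3 left out, limma called ITGB3 (adjusted p = 0.00704), LAMB3 (0.0240), ITGA3 (0.0339), ITGA5 (0.00743), ITGB4 (0.0322), ITGB8 (0.0206), LAMA5 (0.0380) and LAMC3 (0.0447) in SID against UT, and ITGA2 (0.0354), LAMB1 (0.0278) and LAMC3 (0.0303) in SCR against UT. LAMB3 and ITGA3 missed the threshold in SCR against UT (limma's adjusted p = 0.0629 and 0.117). In each of these fits the other peptide's replicate 3 stayed in and counted toward the shared spread. A gene called for one peptide and missed for the other is therefore no sign of a difference between the peptides. The gap between SCR replicates 1 and 2 and SCR replicate 3 was not tested.

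**Figure D3:**
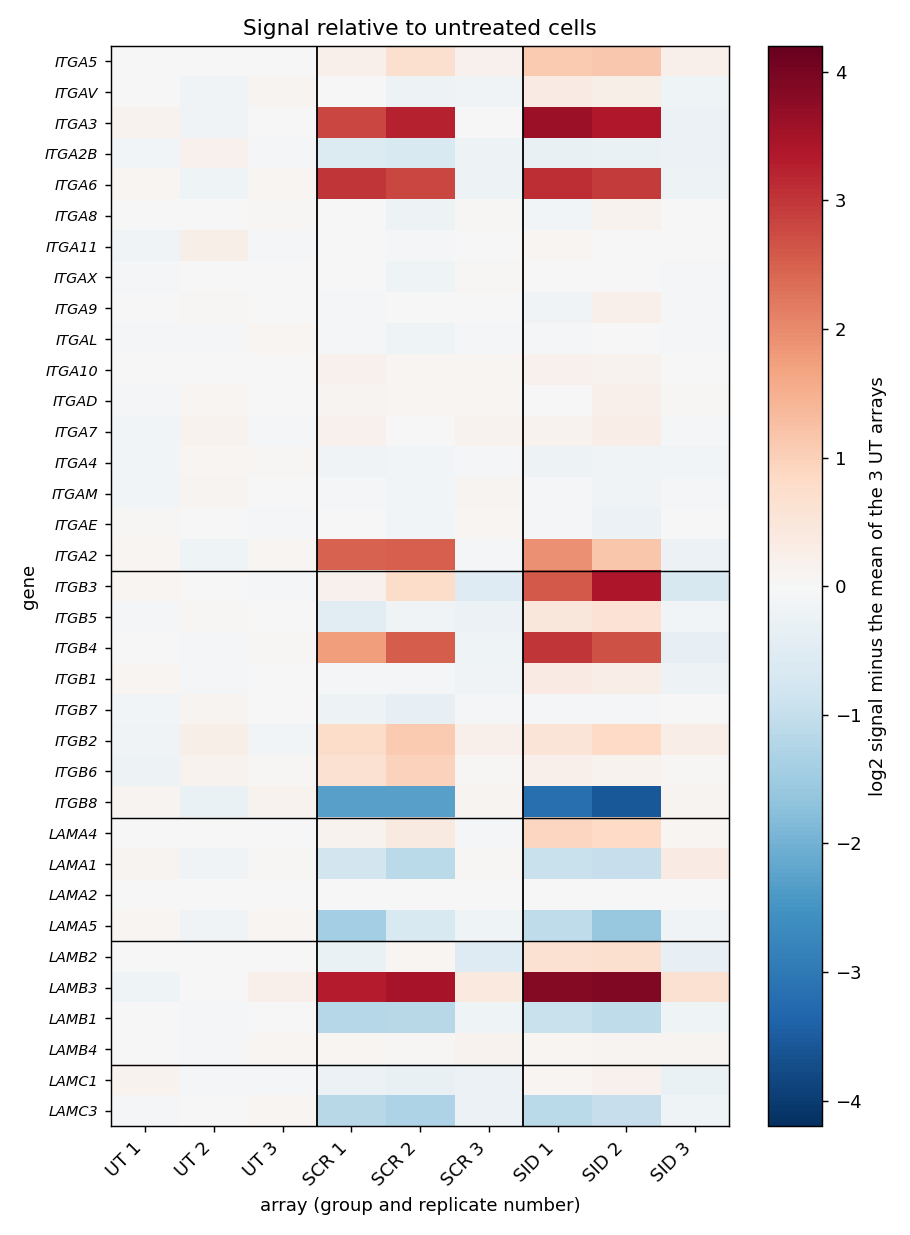
Log2 signal of the 35 genes (vertical axis) on the 9 arrays (horizontal axis), each minus the mean of the 3 UT arrays, from blue (lower) to red (higher). LAMB3, ITGA3, ITGA6, ITGB4 and ITGA2 are red and ITGB8 is blue in replicates 1 and 2 of SCR and of SID, ITGB3 is strongly red in SID replicates 1 and 2, and replicate 3 of both groups is pale like UT.

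Genes that work with integrins and laminins were read from 3 lists. Of 35 adaptors and focal adhesion proteins 32 were measured, 18 with the higher mean in SID and 14 in SCR (median 0.05). On 9 arrays limma called 0, with 3 at an unadjusted p under 0.05 (7.57% of all probes). In replicates 1 and 2 limma called 1 higher (1.77% of all probes) and 2 lower (2.64% of all probes). NEDD9, a docking protein of focal adhesion kinase, lay at 9.49, 9.68 and 9.41 in UT, 7.56, 7.28 and 9.11 in SCR and 9.62, 9.62 and 9.13 in SID, a rise of 2.19 over SCR in replicates 1 and 2 (limma's adjusted p = 0.0160). The SCR arrays 1 and 2 were the low ones, and SID lay at the level of UT. TNS4, a tensin that binds beta chain tails, fell by 2.61 (limma's adjusted p = 0.0263) and FERMT1, the kindlin of epithelia that activates integrins, fell by 1.82 (limma's adjusted p = 0.0218). Relative to the UT mean, replicates 1 and 2 of TNS4 averaged 1.86 in SCR and -0.75 in SID. Those of FERMT1 averaged -0.92 in SCR and -2.74 in SID. The next highest mean difference was that of the kinase PTK2B, 0.57 over all arrays (limma's adjusted p = 0.689).

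Of 33 other ligands and membrane partners of integrins 32 were measured, 21 higher and 11 lower (median 0.07). In limma 0 were called on 9 arrays, with 3 at an unadjusted p under 0.05 (7.57% of all probes). In replicates 1 and 2 limma called 1 higher (1.77% of all probes) and 1 lower (2.64% of all probes). EDIL3, a secreted ligand of alpha V beta 3, lay at 13.24, 13.13 and 13.14 in UT, 11.36, 11.04 and 12.97 in SCR and 12.74, 12.88 and 12.89 in SID. As for NEDD9, the SCR arrays 1 and 2 were apart, and SID rose by 1.61 over them (limma's adjusted p = 0.0165). CDH1, E-cadherin, which is also a ligand of the integrin alpha E beta 7, lay at 6.89, 6.81 and 6.87 in UT, 10.13, 11.08 and 6.73 in SCR and 7.05, 7.26 and 6.91 in SID. It fell by 3.45 in SID against SCR in replicates 1 and 2 (limma's adjusted p = 0.0187). CCN1, a matricellular ligand, gave 1.07, 0.90 and 0.62 in replicates 1, 2 and 3, and the matrix protein tenascin C (TNC) gave -0.73, -1.92 and -0.05.

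Of 26 laminin partners in the basement membrane and hemidesmosome 22 were measured, 13 with the higher mean in SID and 9 in SCR (median 0.02). In limma 0 were called on 9 arrays, with 4 at an unadjusted p under 0.05 (7.57% of all probes). In replicates 1 and 2 limma called 0, where 1.77% of all probes were called higher and 2.64% lower. The highest mean differences were those of perlecan (HSPG2, 0.38) and agrin (AGRN, 0.36), and the lowest those of nidogen 1 (NID1, -0.70), which bridges laminin and collagen IV, and netrin 4 (NTN4, -0.67). All 4 had limma's adjusted p of 0.657 to 0.732. By replicate HSPG2 gave 1.24, -0.12 and 0.03 and AGRN gave 1.04, 0.02 and 0.03, so both means rested on replicate 1. NID1 gave -0.58, -1.35 and -0.16 and NTN4 gave -0.68, -1.23 and -0.09.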

How the data were processed

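RNA of 9 samples was hybridized to Affymetrix Human Gene 1.0 ST arrays. The deposited values are log2 signals per transcript cluster, which the authors had normalized with tools that the labels name without versions or settings (RMA, Expression Console, Transcriptome Analysis Console). Their log2 scale was read from the values. Array normalization of this kind assumes like signal distributions on all arrays.

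Probes with 1 gene symbol (19460 of 33297) were fitted in R 4.3.3 by limma 3.58.1 (linear model, then empirical Bayes), with Benjamini-Hochberg adjustment over all of them. The code was tested on simulated data. Members, lists and tests were chosen with earlier results of these data known. Genes given array by array were ITGB3, members over 0.5 with one sign in replicates 1 and 2, members whose SID or SCR mean differed from UT by over 1, and their partner chains. The member with the smallest difference was named in each class, and the 2 highest and 2 lowest genes of each list. The deviations of SCR and SID from their group means correlated by 0.774, 0.575 and 0.791 for same-numbered replicates, so a replicate block was tried. Replicate 3 of both peptides lay apart from replicates 1 and 2, so these correlations cannot tell pairing by number from array set. Quantile normalization, centring, probe filters, array weights, other tests and leaving out each array were tried as well. Figures were drawn with matplotlib 3.10.9, and promoter sequences are from RefSeq.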

Additional observations from a re-analysis of the deposited data

Results flagged for a closer look

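The difference of ITGB3 between SID and SCR was not alike in replicates 1 and 2 and in replicate 3. The gap between the 2 differences was 2.63 log2 (SE 0.48, adjusted p = 0.0214 in limma on all 9 arrays), with SID higher in replicates 1 and 2 and SID minus SCR at -0.14 in replicate 3. The replicate 3 cells hold 1 array each.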

How the results depend on the processing

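The counts of called members depended on replicate 3. Between SID and SCR 0 were called on 9 arrays and 2 with replicates 1 and 2 alone. With each array left out, 0 to 1 were called, the 1 without SID replicate 3. Array weights, whose estimate gave 1 warning, led to 1 call (ITGB3, 2.35, limma's adjusted p = 0.00394). These weights were 0.18 for SCR replicate 3 and 0.14 for SID replicate 3, against 0.70 to 6.92 for the other arrays. The weighted fits thus counted replicate 3 of the peptides least. Against UT, array weights gave 10 members in SID (12.3% of all probes were called) and 9 in SCR (10.9%), and leaving out arrays gave 0 to 8 in SID and 0 to 3 in SCR, the highest without replicate 3 of the peptide. With the replicate number as a block, which pairs the arrays, 0 were called (lowest adjusted p = 0.526), and the block changed no call. A term for the set of replicates 1 and 2 also gave 0 (lowest adjusted p = 0.171).

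Leaving out arrays turned the sign of some means of SID minus SCR, which ran from -0.78 to 1.47 for ITGA3, from -0.96 to 1.15 for ITGA6, from -0.37 to 1.47 for ITGB4, from -0.57 to 1.5 for LAMB3 and from -1.89 to 0.079 for ITGB8. ITGB3 in SCR against UT ran from -0.18 to 0.48. The lowest values for ITGA3, ITGA6, ITGB4 and LAMB3, and the highest for ITGB8, came without SCR replicate 3, when the groups held unlike numbers of arrays from the 2 sets. The call of ITGB3 between replicates 1 and 2 and replicate 3 held under quantile normalization (adjusted p = 0.0203). With dim probes removed ITGB3 was not tested, 15 members were left, and ITGB8 was called instead (-1.09, adjusted p = 0.0331). Of the values of single genes under all alternatives, 381 kept their direction and side of the threshold, 24 passed it and 14 changed sign. Each member has 1 probe, so another probe could not be tried. Dim signals limit what can be seen for at least 6 members.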
